A study of Rattus norvegicus with 30 samples.

Results

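Primary rat hepatocytes exposed for 24 h to 10 mM sodium valproate were set directly against hepatocytes exposed for the same time to 0.5 mM, a concentration 20 times lower, so both sides of the comparison carried the drug. The comparison used all probesets and the 10 of 30 samples of the series whose titles name these concentrations at 24 h, with 5 cultures at 10 mM and 5 cultures at 0.5 mM. The cells were frozen male Sprague Dawley hepatocytes from a single supplier, kept on collagen under a Matrigel overlay and dosed on day 3. Valproate was dissolved in water, and the 5 water cultures of 24 h entered no value of the comparison and are used only where they are named. The 5 cultures at 10 mM and 5 at 0.5 mM harvested at 48 h serve as a second, separate set. The number of donor animals and the placing of wells on plates are not stated in the labels. A p-value here sets a difference against the spread among such cultures, and if a plate held 1 concentration only, plate and concentration cannot be told apart.

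Valproate is a branched fatty acid used against epilepsy, migraine and bipolar disorder. The liver removes it by glucuronidation and, as an acyl-CoA, by mitochondrial beta-oxidation, and it draws on coenzyme A and carnitine on the way. It also inhibits histone deacetylases of classes I and IIa, enzymes that remove acetyl groups from histones and keep many genes silent. Its known effects in liver include fatty change, raised blood ammonia and, rarely, liver failure.

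Values are MAS5 signals on a linear scale, 1 array per culture, and differences are 10 mM minus 0.5 mM on the log2(signal + 16) scale, each ± the fit's standard error (n = 5 cultures each). A positive difference means a higher level with 10 mM. A gene was called when its adjusted p lay under 0.05 in limma, with no minimum size. The probeset with the highest mean stood for each gene, and 11633 genes passed the filter on signal. The first principal component of the 10 arrays held 60.4% of the variance and separated the concentrations. Arrays of the same concentration correlated at 0.955 to 0.977, and arrays of different concentration at 0.887 to 0.909. Hepatocyte markers were high in all 10 cultures. The summed signal of 13 markers lay between 473057 and 566763 with 10 mM, against 627170 and 746991 with 0.5 mM. Of these markers 10 were called lower and 1 higher, with a median of -0.38, and 6 and 3 after quantile normalization. The shares of 76.9% and 7.69% stand against 27.6% and 34.6% of all tested genes. The 3′ over 5′ log2 ratio of the actin control probesets, a measure of RNA integrity, was 1.44 ± 0.07 with 10 mM and 1.29 ± 0.09 with 0.5 mM (SD, n = 5 each, two-sided exact permutation test, p = 0.0317), whereas that of GAPDH was 0.13 ± 0.01 with 10 mM and 0.12 ± 0.04 with 0.5 mM (p = 0.968). With this actin ratio as a covariate 5153 probesets were called higher and 3845 lower, against 6539 and 5237 without it. Of 255 named genes called at 24 h, 16 lost the call with this covariate.

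Between the concentrations, 4025 genes were called higher with 10 mM and 3211 lower, which is 34.6% and 27.6% of the genes tested and 62.2% in either direction. The 5 values at 10 mM and the 5 at 0.5 mM did not overlap for 5952 genes, or 51.2%. The median difference of all tested genes was 0.02. Most differences were small. A difference of at least 1 on the log2 scale was reached by 1124 rises and 796 falls, a difference of at least 2 by 178 and 131, and of at least 3 by 49 and 25. The split of the calls depended on the scaling, since centring the arrays on ribosomal protein genes raised the median difference of probesets by 0.17 and made 70.6% of the probeset calls higher, against 55.5% under the authors' scaling. Under that centring 4790 genes were called higher and 2089 lower.

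The largest rises fell on genes with little signal at 0.5 mM. The 12 rises and 12 falls were chosen among called genes whose concentrations did not overlap and whose higher group was bright. Their lack of overlap follows from that choice, and it held for 51.2% of all tested genes. Cd24, a surface glycoprotein of liver progenitor cells, had signals of 3212, 3295, 3630, 4229 and 3615 in the 10 mM cultures, against 36.7, 153, 26.8, 80.7 and 124 in the 0.5 mM cultures, a difference of 5.36 ± 0.31 (adjusted p = 7.52e-10). The ranges were far apart, and the 0.5 mM values lay below the mean of 164 that the filter asks for. Acot1, a cytosolic thioesterase that frees fatty acids from coenzyme A, read 5993, 4342, 4717, 4152 and 5470 in the 10 mM cultures, against 107, 211, 203, 204 and 274 in the 0.5 mM cultures, a difference of 4.56 ± 0.19. Soat1, which esterifies cholesterol for storage, read 3751, 4329, 3762, 3695 and 4072 in the 10 mM cultures, against 145, 174, 147, 180 and 195 in the 0.5 mM cultures, a difference of 4.42 ± 0.11. Every 10 mM culture exceeded every 0.5 mM culture for both lipid genes, which the choice of genes required. Cdk1, the kinase that drives entry into mitosis, read 980, 1202, 965, 1002 and 963 in the 10 mM cultures, against 28.8, 74.2, 33.1, 19.5 and 37.2 in the 0.5 mM cultures, a difference of 4.32 ± 0.27. Nefm, the medium neurofilament subunit of neurons, read 2610, 2321, 2074, 2210 and 1776 in the 10 mM cultures, against 57.1, 145, 132, 161 and 106 in the 0.5 mM cultures, a difference of 4.08 ± 0.22. Mest, an imprinted gene expressed from the paternal copy, read 1034, 998, 1282, 1105 and 847 in the 10 mM cultures, against 35.7, 112, 22.9, 9.83 and 188 in the 0.5 mM cultures, a difference of 3.98 ± 0.45. For these 3 genes the 0.5 mM cultures were dim and scattered, and no 10 mM value came near them. The other large rises were Dyrk3, a protein kinase (4.24), Armcx2 of the X-linked armadillo repeat family (4.13), the small LIM protein Crip1 (4.08), Mcub, an inhibitory subunit of the mitochondrial calcium uniporter (4.06), Gucy1b1 of soluble guanylate cyclase (3.97) and the neuronal tubulin Tubb2b (3.95). In 10 of these 12 genes the 0.5 mM mean lay under the filter level, so the size of the rise depends on the pseudocount. The 12 sizes lay between 3.95 and 5.36, between 4.13 and 5.68 with a pseudocount of 1, and between 3.17 and 4.70 with a pseudocount of 64.

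Among the largest falls were genes that mark the differentiated hepatocyte. Asb5, of the ankyrin repeat and SOCS box family, had signals of 325, 213, 187, 230 and 208 in the 10 mM cultures, against 4763, 5443, 5250, 5414 and 4886 in the 0.5 mM cultures, a difference of -4.40 ± 0.12 (adjusted p = 4.04e-13). Mab21l3 read 911, 614, 237, 577 and 447 in the 10 mM cultures, against 8250, 10987, 10232, 11215 and 9679 in the 0.5 mM cultures, a difference of -4.25 ± 0.24. Baat, which joins bile acids to taurine and glycine, read 2204, 1328, 1452, 1278 and 1476 in the 10 mM cultures, against 17851, 19805, 17785, 16382 and 22390 in the 0.5 mM cultures, a difference of -3.61 ± 0.12. These 3 genes were bright at 0.5 mM. Cyp7a1, the rate-limiting step from cholesterol to bile acids, read 521, 430, 332, 256 and 338 in the 10 mM cultures, against 4529, 4942, 3887, 4129 and 4307 in the 0.5 mM cultures, a difference of -3.52 ± 0.15. Cyp8b1, the sterol hydroxylase that directs synthesis to cholic acid, read 1908, 1103, 1261, 985 and 1293 in the 10 mM cultures, against 11943, 12662, 11788, 13308 and 14090 in the 0.5 mM cultures, a difference of -3.30 ± 0.13. Sult2a6, a sulfotransferase of bile acids and hydroxysteroids, read 1477, 711, 653, 627 and 683 in the 10 mM cultures, against 9871, 9107, 9710, 8963 and 8501 in the 0.5 mM cultures, a difference of -3.53 ± 0.18. All 5 cultures at 10 mM were below all 5 at 0.5 mM for each of the 3, which the choice of genes required. Bhmt, which remethylates homocysteine with betaine, read 12641, 7447, 5849, 6161 and 7293 in the 10 mM cultures, against 77786, 69471, 75029, 71356 and 81904 in the 0.5 mM cultures, a difference of -3.31 ± 0.15. Fcgr2b, an inhibitory receptor for immunoglobulin G, read 154, 137, 190, 204 and 114 in the 10 mM cultures, against 1777, 2097, 1937, 1674 and 1698 in the 0.5 mM cultures, a difference of -3.42 ± 0.16. Dstl1 (-3.90), the secretory pathway protein Tmed1 (-3.76), the secreted proteoglycan Esm1 (-3.71) and the adaptor Dapp1 (-3.47) completed the 12 largest falls. In 5 of the 12 the 10 mM mean lay under the filter level. In Baat, Cyp8b1, Sult2a6 and Bhmt the same 10 mM culture, replicate 1, was the highest of its group, and leaving it out gave differences of -3.75 for Baat, -3.45 for Cyp8b1, -3.76 for Sult2a6 and -3.49 for Bhmt.

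**Figure D1:**
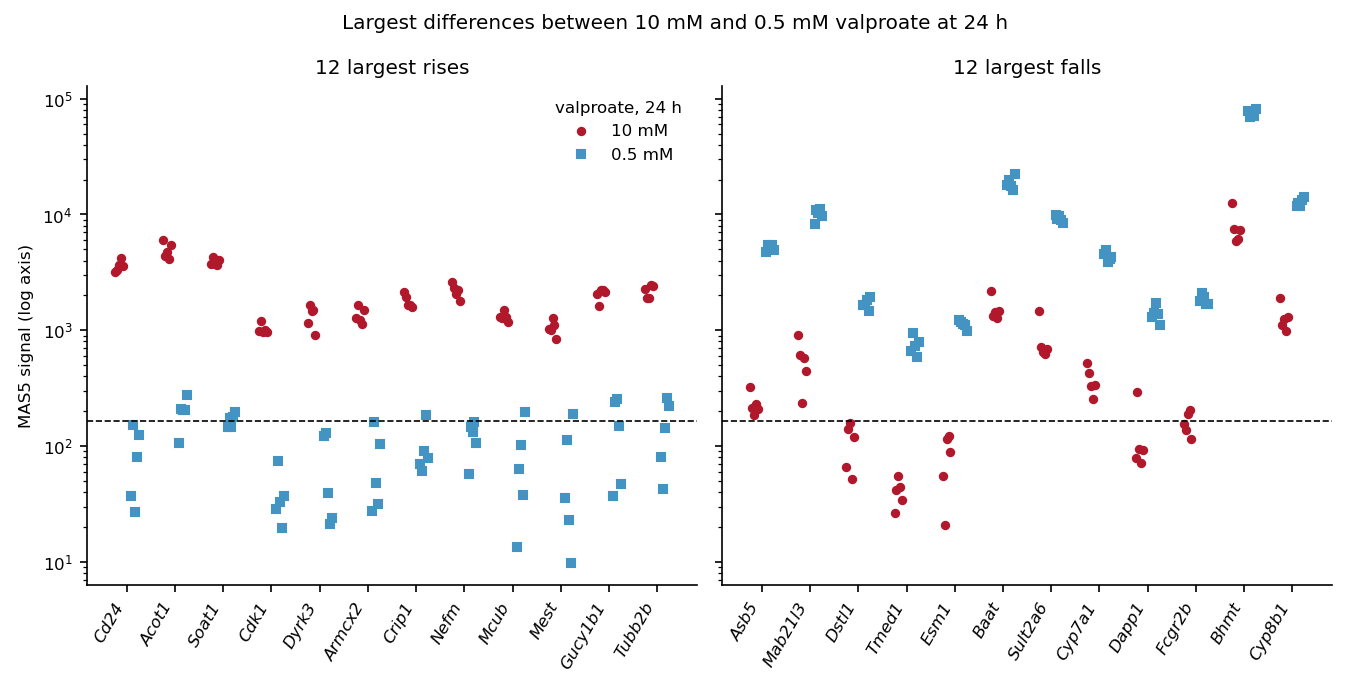
Signal of the 12 genes with the largest rises and the 12 with the largest falls, per culture on a log axis, with 10 mM and 0.5 mM cultures in separate colours (n = 5 each); the dashed line is the filter level of 164. The 24 genes were chosen among those whose concentrations do not overlap, and 10 of the 12 rises have a 0.5 mM mean under the line.

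The promoters of the first 2 rises and first 2 falls are shown because strongly raised and strongly lowered genes differed in base composition. Each runs from 250 bases before to 50 bases after the gene's start in RefSeq (GRCr8), with capitals on the motifs searched.
Cd24: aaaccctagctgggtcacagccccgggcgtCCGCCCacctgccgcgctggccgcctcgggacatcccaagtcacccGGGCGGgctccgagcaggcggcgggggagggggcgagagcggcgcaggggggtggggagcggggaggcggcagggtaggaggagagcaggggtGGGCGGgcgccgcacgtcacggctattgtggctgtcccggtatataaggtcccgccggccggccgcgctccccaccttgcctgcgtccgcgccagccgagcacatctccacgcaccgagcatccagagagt
Acot1: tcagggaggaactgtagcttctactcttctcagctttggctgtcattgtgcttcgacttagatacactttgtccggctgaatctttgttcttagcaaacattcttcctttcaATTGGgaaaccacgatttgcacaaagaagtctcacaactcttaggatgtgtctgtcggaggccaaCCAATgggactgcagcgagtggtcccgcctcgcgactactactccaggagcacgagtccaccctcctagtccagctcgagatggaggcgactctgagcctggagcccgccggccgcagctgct
Asb5: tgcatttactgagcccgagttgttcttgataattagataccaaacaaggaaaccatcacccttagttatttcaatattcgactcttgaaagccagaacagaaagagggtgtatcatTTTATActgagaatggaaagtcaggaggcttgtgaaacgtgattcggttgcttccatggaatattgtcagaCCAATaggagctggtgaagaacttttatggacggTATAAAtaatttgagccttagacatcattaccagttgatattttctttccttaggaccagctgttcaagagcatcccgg
Mab21l3: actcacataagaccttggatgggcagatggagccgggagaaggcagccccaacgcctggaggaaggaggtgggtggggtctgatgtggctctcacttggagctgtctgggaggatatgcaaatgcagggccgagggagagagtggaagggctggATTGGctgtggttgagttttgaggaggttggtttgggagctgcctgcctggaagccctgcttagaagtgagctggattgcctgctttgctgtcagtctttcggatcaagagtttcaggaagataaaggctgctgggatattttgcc
The Cd24 promoter, chr20:48656227-48656526 on the plus strand, is 74% G and C and holds the GC box on both strands. The Acot1 promoter, chr6:109367024-109367323 on the plus strand, is 53.3% G and C and holds the CCAAT motif on both strands. The Asb5 promoter, chr16:44010388-44010687 on the minus strand, is 39.7% G and C and holds TATAAA and CCAAT motifs. The Mab21l3 promoter, chr2:191960155-191960454 on the minus strand, is 55.3% G and C with 1 CCAAT motif on its other strand. A promoter was matched for 9679 of the tested genes. Among 102 genes lower by at least 2, the median ratio of observed to expected CpG dinucleotides was 0.29, against 0.76 over all tested genes, and it was 0.79 among 140 genes higher by at least 2. The GC box GGGCGG stood in 28.4% of the promoters of genes lower by at least 2, in 66.4% of those higher by at least 2 and in 61.1% of all. TATAAA stood in 17.6%, 7.14% and 7.57% of them, and GTTAAT, part of the HNF1 site, in 13.7%, 5.71% and 4.61%. CCAAT stood in 31.4%, 53.6% and 38%, and AGGTCA, a core of nuclear receptor sites, in 17.6%, 7.14% and 12.4%. CACGTG stood in 9.8%, 12.1% and 9.48%, and the cAMP response element TGACGTCA in 1.96%, 3.57% and 3.1%. Motifs were counted on both strands without regard to overlap with each other. These shares are descriptions of letters in a window and carry no test.

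**Figure D2:**
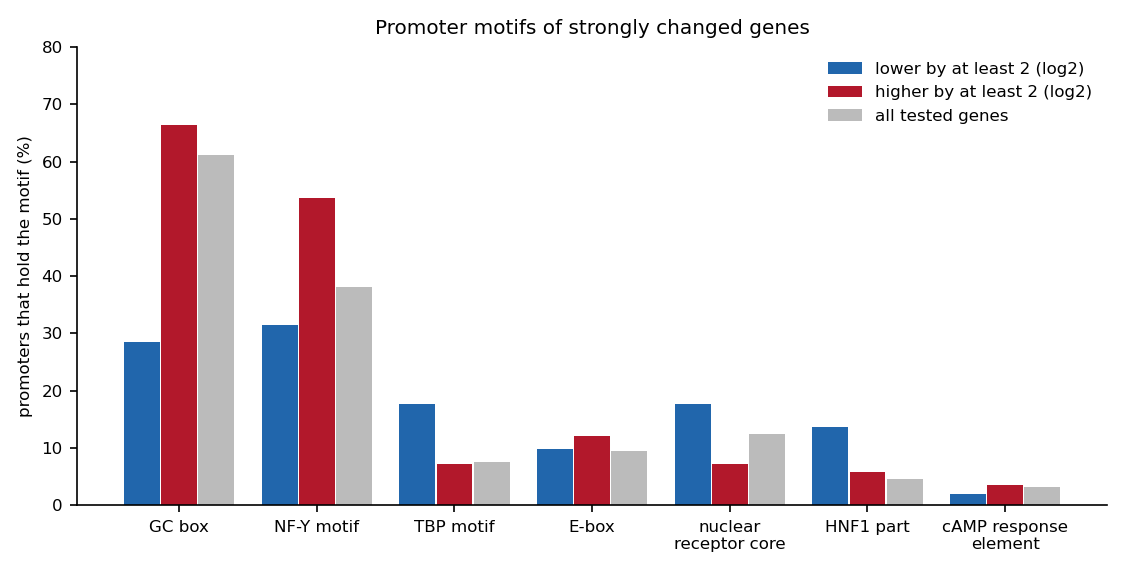
Percent of promoters that hold each of 7 motifs on either strand, for genes lower by at least 2 with 10 mM (102 promoters), genes higher by at least 2 (140 promoters) and all tested genes (9679 promoters). The CCAAT box is labelled NF-Y motif and the TATA box TBP motif, after the proteins that bind them. Strongly lowered genes have the GC box in 28.4% of promoters, against 61.1% of all.

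Genes for the handling of valproate itself were lower with 10 mM. Of 16 tested genes for its glucuronidation, activation and conjugation 14 were called lower and 1 higher, with a median difference of -0.85. The acyl-CoA synthetases of medium-chain acids Acsm1 (-2.19) and Acsm5 (-2.07), the glycine N-acyltransferase Glyat (-2.17), and the glucuronosyltransferases Ugt2a1 (-1.78) and Ugt2b1 (-1.34) fell most. The exception was Slc16a1, a transporter of monocarboxylates (0.30), which lost its call in the mean of its probesets (0.04) and with the actin covariate (0.16). Of 25 genes of carnitine and coenzyme A metabolism 7 were higher and 12 lower. The carnitine importer Slc22a5 was higher (0.80), whereas Bbox1, the last enzyme of carnitine synthesis, was lower (-2.08), as were the pantothenate kinase Pank1 (-1.01) and the coenzyme A synthesis enzymes Ppcdc (-0.92) and Ppcs (-0.89).

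In mitochondrial beta-oxidation the entry step and the enzymes of the chain moved apart. Cpt1a, which links fatty acids to carnitine at the outer membrane, read 6154, 6210, 6245, 6303 and 6208 in the 10 mM cultures, against 2394, 2778, 2688, 2932 and 2841 in the 0.5 mM cultures, a difference of 1.19 ± 0.06 (adjusted p = 1.25e-10). Acadvl, the dehydrogenase of very long acyl-CoA, read 3919, 4290, 4077, 4482 and 4331 in the 10 mM cultures, against 12937, 13367, 12992, 13501 and 13552 in the 0.5 mM cultures, a difference of -1.65 ± 0.05 (adjusted p = 5.14e-13). Neither gene overlapped between the concentrations, and they moved in opposite directions. Of the 25 genes tested 19 were lower, and Cpt1a was the 1 higher. Acad11 (-1.25), Acaa2, the thiolase (-1.18, with a second probeset at 0.48), Acad10 (-1.16) and Etfdh, which passes electrons to ubiquinone (-1.14), fell most after Acadvl, and the median was -0.52. Acadm, the medium-chain dehydrogenase, differed by -0.19 ± 0.05 with overlapping ranges. Centring on ribosomal protein genes left 13 lower and 3 higher.

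The targets of PPARalpha, the receptor through which fatty acids induce their own oxidation, moved both ways. Of 31 tested genes of peroxisomal oxidation and PPARalpha targets 8 were higher and 18 lower. Pdk4, the kinase that shuts pyruvate dehydrogenase, read 36941, 37405, 35996, 35055 and 38056 in the 10 mM cultures, against 3060, 3297, 3327, 3525 and 3075 in the 0.5 mM cultures, a difference of 3.49 ± 0.05 (adjusted p = 5.78e-16). Fgf21, a fasting hormone of liver, read 14239, 15509, 13246, 14261 and 13249 in the 10 mM cultures, against 3227, 3108, 2863, 3620 and 3052 in the 0.5 mM cultures, a difference of 2.15 ± 0.07. Fabp1, the liver fatty acid binding protein, read 11083, 7111, 6383, 5838 and 6601 in the 10 mM cultures, against 44642, 40113, 39673, 38820 and 39458 in the 0.5 mM cultures, a difference of -2.49 ± 0.13. All 3 were well above the filter level in every culture, and none overlapped. Angptl4, an inhibitor of lipoprotein lipase (1.92), and Acot2 (0.84) were also higher, whereas the peroxisomal oxidase Acox2 (-2.13), the pantetheinase Vnn1 (-1.69), Hacl1 of alpha-oxidation (-1.66) and Acot12 (-1.28) were lower. Ehhadh, the bifunctional enzyme of peroxisomal oxidation, differed by -0.48 ± 0.09. Ehhadh is high at 0.5 mM relative to water, as given with the water cultures further on.

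Genes of lipid synthesis and export were mostly lower. In fatty acid and triglyceride synthesis 16 of 27 were lower and 7 higher, with a median of -0.48. Fasn, the fatty acid synthase, averaged 2616 ± 167 in the 10 mM cultures and 6346 ± 856 in the 0.5 mM cultures (SD, n = 5 each), a difference of -1.26 ± 0.08. Tkfc (-2.13), the lipogenic regulator Thrsp (-2.09), the phosphatidate phosphatase Lpin2 (-1.68) and the acetyl-CoA carboxylase Acaca (-1.14) were lower as well. Mogat2, a monoacylglycerol acyltransferase (2.63), the desaturase Scd2 (1.53) and the elongases Elovl2 (1.51) and Elovl5 (1.03) were higher. Among 33 genes of lipid droplets and lipoproteins 24 were lower and 5 higher, with Soat1 and Lpl, the lipoprotein lipase (1.96), leading the higher ones. The droplet coat Plin4 (-1.80), the apolipoprotein Apoa5 (-1.50), Lcat, which esterifies cholesterol in plasma (-1.35), the monoacylglycerol lipase Mgll (-1.29) and Cideb (-1.23) fell most. Cholesterol synthesis had no common direction, with 7 of 20 higher and 8 lower and a median of -0.13 that turned to 0.04 under ribosomal centring. Cyp51 (0.61) and Mvd (0.48) were higher and the sterol sensor Insig2 (-0.98) and Nsdhl (-0.70) lower.

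The lowest median of the 49 lists was that of bile acid synthesis and transport, -1.54, with 23 of 26 tested members lower and 2 higher. Beside Baat, Cyp7a1 and Cyp8b1, the uptake transporters of bile acids and organic anions Slco1a4 (-2.83) and Slco1b2 (-2.39) fell most. The exceptions were Abcb1a, the P-glycoprotein pump (1.31), and Amacr, a racemase (0.25). Neither quantile normalization, with 23 lower, nor ribosomal centring, with 22 lower, altered this count by more than 1.

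Amino acid breakdown had the next lowest median, -1.20, with 44 of 47 genes lower and 2 higher. Ftcd of histidine breakdown (-3.09), the choline dehydrogenase Chdh (-2.91), the kynurenine formamidase Afmid (-2.72) and the dihydropyrimidinase Dpys (-2.64) followed Bhmt. The higher genes were the transaminase Got1 (0.44) and Amt of the glycine cleavage system (0.26). In the urea cycle and ammonia list 9 of 16 were lower and 5 higher, or 56.2% and 31.2%, against 27.6% and 34.6% of all genes. Otc, the ornithine carbamoyltransferase, read 1659, 1330, 984, 1428 and 1892 in the 10 mM cultures, against 6893, 6706, 7197, 6999 and 7770 in the 0.5 mM cultures, a difference of -2.30 ± 0.13 (adjusted p = 5.09e-10). The groups did not overlap. Car5a, the mitochondrial carbonic anhydrase that supplies bicarbonate (-3.17), Arg1, the hepatic arginase (-1.75), and the carriers Slc25a15 (-1.64) and Slc25a13 (-1.57) were lower too. Cps1, the entry enzyme, differed by -0.61 ± 0.05 in its brightest probeset and by -1.33 in a second one. The extrahepatic arginase Arg2 (2.23) and the glutamine synthetase Glul (0.42) were higher. Of 24 genes of branched-chain amino acid and propionate breakdown 14 were lower, led by Aldh6a1 (-1.48) and the methylmalonyl-CoA mutase Mmut (-1.01), and 5 higher, led by the phosphatase Ppm1k (0.93). GABA and inositol genes, which bear on the neural actions of the drug, were 8 higher and 6 lower of 20. These shares of 40% and 30% lie near the 34.6% and 27.6% of all genes. The GABA transaminase Abat averaged 1122 ± 166 in the 10 mM cultures and 3701 ± 672 in the 0.5 mM cultures (SD, n = 5 each), a difference of -1.70 ± 0.12. A second Abat probeset was not called (0.12), and the mean of both gave -0.27 without a call. The inositol synthase Isyna1 differed by -0.46 ± 0.12 with overlapping ranges. The inositol oxygenase Miox was lower (-1.77) and the inositol importer Slc5a3 higher (1.26).

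Among 25 genes of glucose production, glycogen and insulin signalling 14 were lower, with a median of -0.56, and 4 higher. Pyruvate carboxylase Pc (-1.91), Pfkfb1 (-1.79), the liver glycogen synthase Gys2 (-1.63) and the glucagon receptor Gcgr (-1.45) were lower, whereas Pck1, which makes phosphoenolpyruvate, was higher (0.81 ± 0.11). Glycolytic and oxygen-responsive genes moved in both directions, 10 higher and 13 lower of 27. These shares were 37% and 48.1%, against 34.6% and 27.6% of all genes. Eno2, the neuronal enolase (2.21), Ldhb (1.92) and the lactate exporter Slc16a3 (1.52) were higher, and the liver phosphofructokinase Pfkl (-1.85), the oxygen sensor Egln3 (-1.67) and the peptide Adm (-1.44) lower.

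Drug-metabolising enzymes were lower as a group. Of 27 constitutive P450 genes 24 were lower, with a median of -1.02, and Cyp3a9 was the 1 higher (0.39). Cyp2f4 (-3.02), Cyp2a2 (-2.12), Cyp2c12 (-1.73), Cyp3a18 (-1.54) and the male-specific Cyp2c11 (-1.47) fell most. Probesets of these families can share signal between close relatives. Among targets of the receptors CAR, PXR and AhR 14 of 18 were lower. Cyp1a1, the AhR target that oxidises aromatic hydrocarbons, read 4264, 3711, 5682, 5700 and 7457 in the 10 mM cultures, against 37326, 35564, 38904, 36867 and 40450 in the 0.5 mM cultures, a difference of -2.86 ± 0.14 (adjusted p = 8.61e-11). The 0.5 mM cultures were bright and close together, and no 10 mM culture reached them. The receptors Nr1i3, known as CAR (-2.02), and Nr1i2, known as PXR (-1.51), were lower themselves, and Cyp3a2, a PXR target, differed by -0.57 ± 0.06. The DNA damage gene Gadd45b was the 1 higher member (0.90). Of 41 genes of glutathione and the Nrf2 response 30 were lower, including Gsta3 (-2.28), the haem oxygenase Hmox1 (-1.78), the metallothionein Mt1 (-1.48) and Gpx2 (-1.47). The 4 higher ones were Srxn1 (0.83), the thioredoxin reductase Txnrd1 (0.67), Gstp1 (0.39) and Sod2 (0.12). The ranges of Sod2 overlapped, and it lost its call without 0.5 mM replicate 2, 3 or 4 or without 10 mM replicate 2 or 3, at 0.11 to 0.12. Genes of retinol, steroid and thyroid hormone metabolism were lower in 24 of 33 cases, with Akr1c1 (-3.16), Hsd3b5 (-2.34), the retinal reductase Dhrs3 (-2.28) and Hsd17b2 (-2.05) after Sult2a6.

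Of 34 hepatocyte transcription factors and nuclear receptors 19 were lower and 8 higher. The oxysterol receptor Nr1h3 (-3.06), the pioneer factor Foxa1 (-2.53) and Nr1i3 fell most, whereas Hnf4a, a master regulator of hepatocyte genes, differed by -0.14 ± 0.05 in its brightest probeset, with overlapping ranges and the other sign under ribosomal centring. Its 2 further probesets were called lower, at -1.02 and -2.08, and the probesets of Hnf4a thus disagree in size. Cebpa fell by 0.64. Hlf (0.78) and Onecut1 (0.73) were the highest rises. Secreted proteins were lower with 10 mM in most cases, 19 of 24 for coagulation, 29 of 32 for complement and the acute phase, and 22 of 26 for albumin and other carriers. Heparin cofactor Serpind1 (-1.74), factor X, encoded by F10 (-1.28), the mannose-binding lectin Mbl2 (-2.13), complement C5 (-1.85) and alpha-fetoprotein Afp (-1.16) were lower. Albumin itself differed by -0.33 ± 0.08, and by 0.01 with the other sign under quantile normalization. The plasminogen activator Plat (1.48), the copper carrier Cp (0.30, with a second probeset at -0.34) and the corticosteroid carrier Serpina6 (0.74) were higher.

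Iron genes were headed by hepcidin, the peptide hormone that blocks iron export. Hamp read 44480, 55052, 50900, 52524 and 47820 in the 10 mM cultures, against 3929, 4287, 2970, 3904 and 2838 in the 0.5 mM cultures, a difference of 3.82 ± 0.10 (adjusted p = 2.53e-13). Its 10 mM values lay far above every 0.5 mM value. Of 29 tested members 11 were higher and 11 lower, or 37.9% each, against 34.6% and 27.6% of all genes. Some genes of BMP signalling were higher, namely Id1 (1.87), Bmp2 (1.32), Id3 (1.24) and Bmp6 (1.15). Others were lower, namely Id2 (-1.01) and the BMP coreceptor Hjv (-2.03). The iron sensors Tfr2 (-1.22) and Hfe (-1.10) were lower as well. Tfrc, the transferrin receptor, differed by -0.39 ± 0.06.

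Several histone deacetylase genes differed between the concentrations. Hdac1, of class I, read 5787, 5714, 5743, 6151 and 6344 in the 10 mM cultures, against 1156, 1416, 1464, 1611 and 1632 in the 0.5 mM cultures, a difference of 2.03 ± 0.09 (adjusted p = 2.3e-11). No value overlapped. Hdac6 (1.59 ± 0.28), Hdac3 (0.76 ± 0.06) and Hdac2 (0.47 ± 0.05) were higher, and Hdac10 (-1.15) and the mitochondrial sirtuin Sirt4 (-1.14) lower. In the whole list of deacetylases and corepressors 12 of 31 were higher and 7 lower, shares of 38.7% and 22.6% that lie near those of all genes. Among other chromatin enzymes 17 of 40 were higher and 6 lower, or 42.5% and 15%, against 34.6% and 27.6% of all genes. The methyltransferase Ezh2 (2.23), Uhrf1 (2.02), the maintenance DNA methyltransferase Dnmt1 (1.69) and Dot1l (1.31) led the higher ones. The acetyltransferase Kat2b (-1.20) led the lower ones. Of 25 genes known from other cells to rise with deacetylase inhibitors 13 were higher and 5 lower, with a median of 0.66. These shares were 52% and 20%, against 34.6% and 27.6% of all genes. The list was drawn up with earlier results of these data known, so its count is a description and no independent test. The testis-enriched chaperone Hspa2 (3.21) and the neuronal tubulin Tubb3 (2.25 ± 0.11) were among them, beside Cd24, Crip1, Nefm and Tubb2b. Cdkn1a, the p21 inhibitor often used as a marker of these drugs, differed by 0.01 ± 0.11 and was not called (adjusted p = 0.957).

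Neuronal genes were higher in 15 of 37 tested cases and lower in 4, with a median of 0.36. The 40.5% higher lies near the 34.6% of all genes, and the 10.8% lower is below their 27.6%. The clathrin adaptor Snap91 (3.39), the ubiquitin hydrolase Uchl1 (2.74), the microtubule destabiliser Stmn1 (2.72) and the RNA-binding protein Elavl2 (2.67) followed Nefm. Of 54 measured members 37 passed the filter. Nefm, Snap91 and Elavl2 passed it only through their 10 mM values, with 0.5 mM means of 120, 59.8 and 77.3, under the level of 164. Such genes could hardly be called lower, so nothing is concluded from the share of falls. The lower ones were Elavl4 (-0.98), Syn1 (-0.97), Map1a (-0.66) and Elavl3 (-0.40, which turned to 0.08 in the mean of its probesets). Of 43 tubulin and actin cytoskeleton genes 15 were higher and 14 lower, shares of 34.9% and 32.6% that lie near those of all genes. Their median of -0.05 turned to 0.13 under ribosomal centring and to 0.05 under quantile normalization. Among the largest changes, Pfn2 (2.96) and Tubg1 (1.72) were higher beside Tubb2b and Tubb3. The actins Acta1 (-1.56) and Acta2 (-1.23) and Pfn1 (-1.09) were lower. Genes of keratins, junctions and progenitor or mesenchymal state were lower in 28 of 45 cases, including Cldn7 of tight junctions (-2.56), the intermediate filament Vim (-1.61), the connexin Gjb1 (-1.32) and the calcium-binding S100a4 (-1.28). The higher ones were led by Cd24, Sox4 (1.03) and Cd44 (0.92). The 4 further probesets of Sox4 were not called, at 0.97, 0.65, -0.21 and -0.24. S100a4 lost the call without any 1 of replicates 2, 3 and 4 of either concentration, with differences of -1.22 to -1.06. Cd44 lost it without 0.5 mM replicate 1 or without 10 mM replicate 1, 2, 4 or 5, with 0.86 to 0.93. Ion channels and transmitter receptors were lower in 15 of 43, led by Clcn4 (-2.44), and higher in 4. These shares were 34.9% and 9.3%, against 27.6% and 34.6% of all genes.

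Of the cell cycle genes that passed the filter, more were called higher than lower. Of 40 tested cyclins, replication and mitosis genes 23 were higher and 2 lower, with a median of 0.75. These shares were 57.5% and 5%, against 34.6% and 27.6% of all genes. The 40 came from 46 measured members. Cdk1, with a 0.5 mM mean of 38.6, passed the filter only through its 10 mM values and could hardly be called lower. The split between rises and falls thus depends in part on the filter. Ccne1, the cyclin of S-phase entry, read 1593, 1844, 1722, 1661 and 1664 in the 10 mM cultures, against 231, 231, 127, 20.1 and 139 in the 0.5 mM cultures, a difference of 3.64 ± 0.40 (adjusted p = 1.05e-06). Its 0.5 mM values were scattered near background, and the 10 mM values were higher in all 5 cultures. Ccne2 (2.99), the replicative helicase subunits Mcm4 (2.93) and Mcm6 (2.60) and Ccnd1 (1.23 ± 0.13) were higher, and the thymidine kinase Tk1 (-1.21) and Cenpf (-0.49) lower. Mki67, a marker of cycling cells, lay below the filter on signal. Of 7 tested inhibitors of these kinases 4 were higher and 1 lower. The higher ones were Cdkn3 (3.15), Cdkn1c (1.84 ± 0.15), Cdkn2d (1.23) and Cdkn2c (0.80), and the lower one was Cdkn1b, the p27 inhibitor (-0.19). In the p53, damage and apoptosis list 21 of 39 were higher and 7 lower, or 53.8% and 17.9%, against 34.6% and 27.6% of all genes. The BH3 protein Bik (2.72), Casp6 (1.69), Gadd45a (1.42) and the nuclease Aen (1.42) led the higher ones, and the mitophagy receptor Bnip3l (-0.95) and Casp8 (-0.93) the lower ones.

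Stress responses differed between lists. Of all tested genes 34.6% were higher and 27.6% lower, and several lists of this paragraph lay near those shares. These were immediate early and growth factor genes (35% and 32.5%), TGF-beta, Wnt and Notch (31.7% and 22%), and lysosome and autophagy (40% and 32.5%). Endoplasmic reticulum chaperones (44% and 24%) and heat shock genes (45% and 30%) lay not far from them. The shares were 47.1% and 17.6% for clock genes, and 61.5% and 15.4% for the ATF4 and amino acid response. Of 39 genes of the ATF4 and amino acid response 24 were higher and 6 lower, with a median of 0.35. The glutamine importer Slc1a5 (3.08), Atf3 (2.67), Ddit3, known as CHOP (1.99 ± 0.09), and Sesn2 (1.40) rose most beside Fgf21, whereas Atf4 itself differed by 0.23 ± 0.04. Of 25 endoplasmic reticulum chaperones and sensors 11 were higher and 6 lower, and Hspa5, known as BiP, was not called (0.08 ± 0.06, adjusted p = 0.265) under the authors' scaling, but differed by 0.26 after ribosomal centring and 0.47 after quantile normalization with a call. Heat shock genes were 9 higher and 6 lower of 20, with Hsph1 (1.40) and Hspa1a (1.32 ± 0.05) higher and the lens chaperone Cryab lower (-2.00). Among immediate early and growth factor genes 14 of 40 were higher and 13 lower. Egr1, an early transcription factor, read 7155, 7830, 7402, 7175 and 6505 in the 10 mM cultures, against 709, 1049, 864, 994 and 905 in the 0.5 mM cultures, a difference of 2.98 ± 0.09. Its values did not overlap, and Fos was higher as well (3.10), while Ier3 (-1.30) and the receptor Fgfr4 (-1.20) were lower. In TGF-beta, Wnt and Notch signalling the activin subunits Inhbe (-2.22) and Inhbc (-2.11) of hepatocytes were lower and Inhba (1.67) was higher, within 13 rises and 9 falls of 41. Clock genes were 8 higher and 3 lower of 17, with the related repressors Bhlhe41 (2.43) and Bhlhe40 (-2.23) in opposite directions. Lysosome and autophagy genes had no common direction, with 16 higher and 13 lower of 40, and the acid amidase Naaa was the largest rise (3.55).

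For the large complexes the differences were small and depended on the scaling. Of 60 subunits of oxidative phosphorylation 49 were lower and 3 higher, with a median of -0.31, but 30 were lower and 8 higher after ribosomal centring, and 27 and 16 after quantile normalization. The complex I subunit Ndufs8 (-1.36) and the complex II subunit Sdha (-0.96) were among the larger falls. Ribosomal protein genes were lower in 30 of 40 cases under the authors' scaling with a median of -0.22, and higher in 27 cases and lower in 0 under quantile normalization. Proteasome subunits were 6 higher and 15 lower of 34, and 18 higher and 9 lower under quantile normalization. No direction is therefore given for ribosomal protein or proteasome genes at 24 h.

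**Figure D3:**
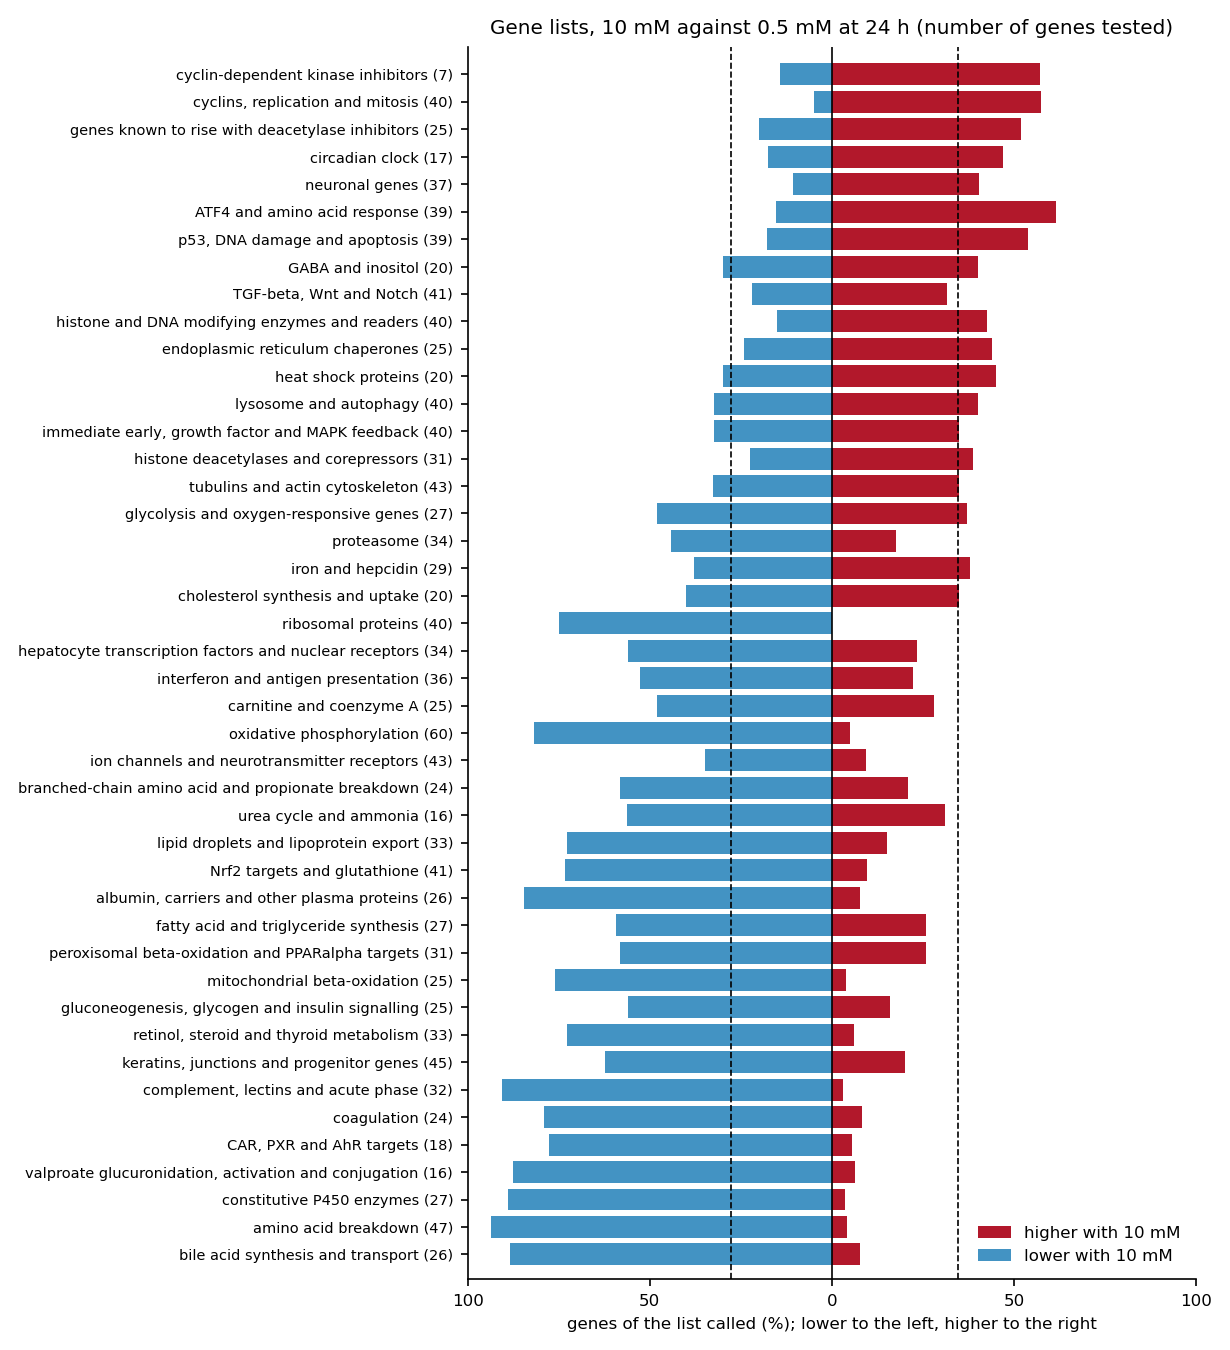
Percent of the tested genes of each list called higher (right) and lower (left) with 10 mM relative to 0.5 mM at 24 h, sorted by the median difference, with the shares over all tested genes (34.6% higher, 27.6% lower) as dashed lines. Bile acid, amino acid breakdown and P450 lists lie far left of the line for falls, and cyclins, replication and mitosis far right of the line for rises.

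Macrophage markers were lower with 10 mM. Of 12 tested Kupffer cell and macrophage markers 11 were lower with 10 mM and 0 higher, with a median of -1.16. Their summed signal lay between 13220 and 14869 with 10 mM, against 36719 and 39841 with 0.5 mM, while Adgre1, Ptprc and Cd163 were below the filter. Fcgr2b, the lipopolysaccharide coreceptor Cd14 (-2.28) and the complement subunits C1qc (-2.21) and C1qb (-1.98) led the falls, and complement C1qa also stands in the complement list. Fewer cells of a type and less RNA per cell cannot be told apart in these cultures. Stellate markers summed to between 6481 and 7093 with 10 mM, against 8562 and 8975 with 0.5 mM, with 3 of 12 lower and 0 higher. The 25% lower lies near the 27.6% of all genes. Endothelial markers summed to between 3382 and 3851 with 10 mM, against 3654 and 4561 with 0.5 mM, and these ranges overlap. Of 7 tested 3 were lower and 1 higher, with Pecam1, Stab1, Stab2, Ehd3 and Vwf below the filter. Cholangiocyte markers summed to between 8987 and 10278 with 10 mM, against 11118 and 12181 with 0.5 mM, with 2 higher and 2 lower of 5 and Spp1, Krt7, Krt19 and Cldn4 below the filter. Interferon and antigen presentation genes were lower in 19 of 36 cases, including the invariant chain Cd74 (-1.70), Mx2 (-1.64) and RT1-Da (-1.27), and higher in 8, including the chemokines Cxcl1 (2.32) and Cxcl10 (1.23). The part of macrophages in these results was not tested.

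Some of these genes have further probesets on the array. Of 92 further probesets of 69 named genes 69 were called the same way as the reported one, 2 the other way and 21 were not called. Those not called, beside the ones given above, were of Scd2 (0.01), Hlf (-0.08), Bmp6 (-0.92, with another called at 2.30), Elavl3 (0.57), Tk1 (-0.20), Cdkn1b (-0.60), Cdkn2c (-0.10), Sesn2 (0.75), Inhba (0.09), Mx2 (-0.34), Cdkn1a (0.06), Car3 (0.11) and Grb10 (0.19 and 0.12). Whether such probesets read other transcripts was not tested. Further calls did not hold under some alternatives. With the actin covariate Amt (0.23), Onecut1 (0.67), Hdac10 (-0.48), Cp (0.18), Alb (-0.29), Lmcd1 (0.24) and Tmem14a (0.43) lost the call. So did Acadm (-0.19), Cyp4a1 (-0.29), Hnf4a (-0.16), Sod2 (0.10), Syn1 (-0.75), S100a4 (-1.05), Cenpf (-0.34) and Elavl3 (-0.24). In the fit of all 30 arrays Elavl4 (-0.98), Syn1 (-0.97), Sod2 (0.12), Hnf4a (-0.14), Elavl3 (-0.40), Cdkn1b (-0.19) and Lmcd1 (0.31) lost it. Under ribosomal centring Isyna1 (-0.29), Cdkn1b (-0.02), Elavl3 (-0.23), S100a4 (-1.11) and Cenpf (-0.32) did. Hnf4a also lost it with no trend (-0.14) and without 10 mM replicate 3 (-0.11). Elavl3 and Cenpf lost the call without 0.5 mM replicate 1, at -0.34 for Elavl3 and -0.41 for Cenpf, and Elavl3 also without 7 other single arrays.

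The same comparison at 48 h used other cultures. The actin log2 ratio there lay between 1.28 and 1.49 with 10 mM, against 1.05 and 2.77 with 0.5 mM. Without the 2 arrays of high ratio 5303 probesets were higher and 3577 lower, against 5500 and 3903 with them. There 3341 genes were called higher with 10 mM and 2537 lower, or 28.7%, 21.8% and 50.5% in either direction. Of the 24 h calls 67.3% were called the same way at 48 h, and of the 48 h calls 82.9% at 24 h. Across 11633 genes, which are not independent and share the arrays of each time, the differences correlated at 0.853. Of 4962 genes called at both times, 4873 kept their direction, 2808 higher and 2065 lower, and 89 turned. The cell cycle list was similar at the later time, with 24 higher and 2 lower, as was the bile acid list, with 18 lower.

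**Figure D4:**
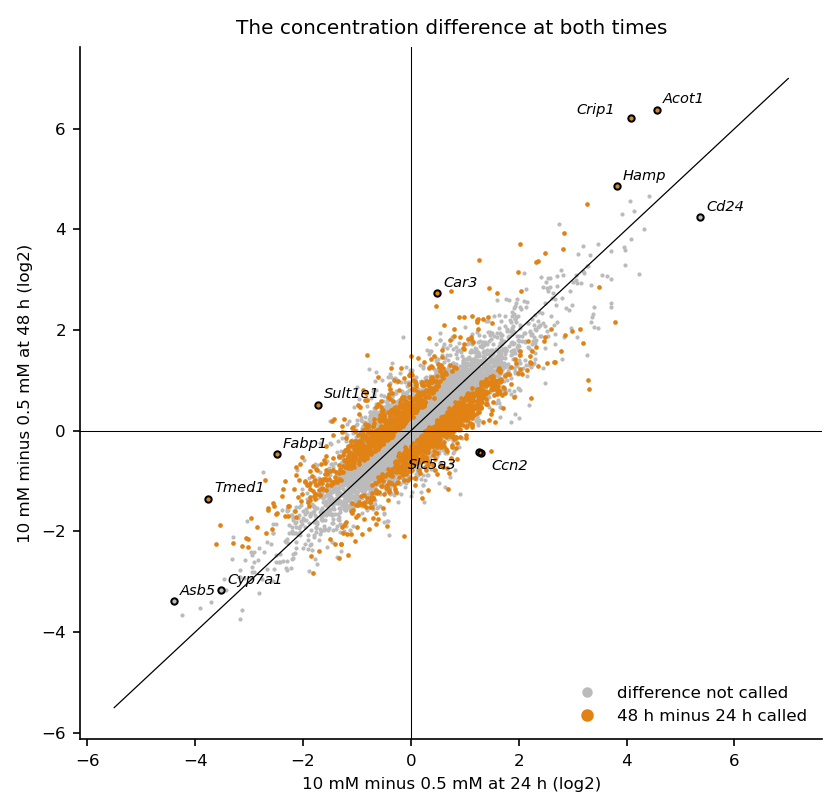
Difference between 10 mM and 0.5 mM at 48 h against that at 24 h for 11633 genes on the log2 scale, with genes whose difference changed between the times in colour. The points correlate at 0.853, and Fabp1, Sult1e1 and Car3 lie above the diagonal while Ccn2 and Slc5a3 lie below it.

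The difference between concentrations itself changed with time, upward from 24 h to 48 h for 751 genes and downward for 825, or 6.46%, 7.09% and 13.5% in all. Ribosomal centring moved this split to 217 upward and 1226 downward. Without the 2 arrays of 0.5 mM at 48 h with a high actin ratio 917 probesets moved upward and 842 downward, against 1120 and 1167 with them. Fabp1 averaged 28608 ± 4625 in the 10 mM cultures and 39305 ± 4282 in the 0.5 mM cultures at 48 h (SD, n = 5 each), a difference of -0.47, so its contrast was higher by 2.02 ± 0.18 than at 24 h (adjusted p = 1.5e-07). Sult1e1, the oestrogen sulfotransferase, differed by -1.72 at 24 h and 0.52 at 48 h, and Car3, a muscle and liver carbonic anhydrase, by 0.49 and 2.74. Crip1 (6.22 at 48 h), Tmem14a (1.27 and 3.39) and Serpina6 (2.78 at 48 h) moved upward as well. Moving downward were Ccn2, the matrix growth factor CTGF, with 1.30 at 24 h and -0.44 at 48 h, Slc5a3 (-0.42 at 48 h), the centromere protein Cenpx (2.23 and 0.65), Tatdn2 (0.71 and -0.83), Krt86 (0.21 and -1.33) and Lmcd1 (0.31 and -1.17). Of the PPARalpha list 18 of 31 genes moved upward and 1 downward, 18 after quantile normalization and 8 after ribosomal centring, and Ehhadh moved by 0.69 ± 0.17. Of the cholesterol list 11 of 20 moved downward, 12 after quantile normalization and 13 after ribosomal centring. Proteasome genes moved upward in 20 of 34 cases and downward in 0, 19 upward after quantile normalization and 5 after ribosomal centring, with Psma3 at -0.72 at 24 h and -0.05 at 48 h.

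Because the lower concentration is itself a dose, the 0.5 mM cultures were also set against water at 24 h. That comparison shares the 0.5 mM arrays with the one above, so its values are given side by side and no relation between them was computed. The actin log2 ratio of the water cultures lay between 1.37 and 2.76, and without the array of high ratio 2232 probesets were higher with 0.5 mM and 2243 lower, against 2027 and 2128 with it. With 0.5 mM 1226 genes were called higher than water and 1499 lower, or 10.5%, 12.9% and 23.4% in either direction, and 624 and 1521 after ribosomal centring. Among genes whose mean over the 10 arrays reached the median of all probesets, the largest differences upward were Tmem255b (2.19), the kinetochore gene Spc24 (2.16), Tmem14a (2.03), Fer1l5 (1.93), Fam117b (1.92) and the haemoglobin gene Hba-a3 (1.89). Downward they were, in the same range of signal, Rrp1b (-2.19), Donson (-1.88), the arginine importer Slc7a1 (-1.71), Rhbdf2 (-1.65), Arhgef2 (-1.52) and the insulin receptor adaptor Grb10 (-1.45). Dimmer genes went further in both directions, with Sebox at 3.19 and Dyrk3 at -2.31, both named here after their values were seen. The 10 mM minus 0.5 mM differences of Tmem255b (-2.81), Spc24 (-1.87), Fer1l5 and Fam117b were negative. Those of Rrp1b (1.69), Donson (3.48), Slc7a1 (1.23), Rhbdf2, Arhgef2 and Grb10 were positive. Tmem14a was called higher in both comparisons, and Hba-a3 was not called between the concentrations. The 0.5 mM arrays enter both differences with opposite signs, so this choice of genes favours opposite signs. Further probesets of Rrp1b (-0.09) and Slc7a1 (-0.23) were not called, and in the mean of its probesets Rrp1b (0.42) and Slc7a1 (0.20) lost the call.

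Fatty acid oxidation genes were mostly higher with the low concentration than with water. In the mitochondrial list 21 of 25 were higher with 0.5 mM than with water and 1 lower, 17 higher under ribosomal centring and 20 under quantile normalization, and in the PPARalpha list 15 of 31 were higher and 2 lower. Ehhadh had signals of 1606, 1677, 1472, 1766 and 1871 in the water cultures, 6046, 5659, 6237, 6448 and 6730 in the 0.5 mM cultures and 5252, 4509, 3609, 4168 and 4916 in the 10 mM cultures. The 0.5 mM cultures were the highest, the 10 mM cultures lay slightly below them, and all 10 treated cultures exceeded all 5 water cultures. Its difference was 1.88 ± 0.08 for 0.5 mM minus water and -0.48 ± 0.09 for 10 mM minus 0.5 mM. Cyp4a1, the fatty acid omega-hydroxylase that is a classic PPARalpha target, was chosen after its values were seen and differed by 1.74 ± 0.07 and -0.39 ± 0.09. Acadm differed by 0.86 ± 0.10 and -0.19 ± 0.05. For 10 mM minus 0.5 mM both lost the call under quantile normalization, at -0.16 for Cyp4a1 and -0.03 for Acadm, and under ribosomal centring, at -0.21 for Cyp4a1 and -0.01 for Acadm. Oxidative phosphorylation genes were higher with 0.5 mM than with water in 37 of 60 cases, 23 after quantile normalization and 16 after ribosomal centring, with a median of 0.22.

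The ATF4 response was mostly lower with the low concentration than with water. With 0.5 mM 24 of its 39 genes were lower than water and 2 higher, with a median of -0.52. Fgf21 read 7260, 8357, 5471, 9614 and 9393 in the water cultures, 3227, 3108, 2863, 3620 and 3052 in the 0.5 mM cultures and 14239, 15509, 13246, 14261 and 13249 in the 10 mM cultures. Asns, the asparagine synthetase, read 11290, 12341, 12238, 12504 and 12453 in the water cultures, 5559, 4972, 5573, 5102 and 4601 in the 0.5 mM cultures and 11851, 12836, 12416, 13284 and 12516 in the 10 mM cultures. Slc7a1 read 4695, 5618, 5483, 4224 and 4485 in the water cultures, 1629, 1418, 1231, 1480 and 1661 in the 0.5 mM cultures and 3620, 3646, 3399, 3522 and 3187 in the 10 mM cultures. In all 3 genes the 0.5 mM values were the lowest of the 3 groups. Fgf21 exceeded water at 10 mM in every culture, whereas Asns at 10 mM lay at the level of water. Cyp1a1 was highest at 0.5 mM, with means of 16248 ± 2504 with water, 37822 ± 1893 with 0.5 mM and 5363 ± 1461 with 10 mM (SD, n = 5 each), and so was the oxygen-responsive Adm, with 3387 ± 793 with water, 11994 ± 713 with 0.5 mM and 4459 ± 729 with 10 mM. Of 27 glycolytic and oxygen-responsive genes 22 were higher with 0.5 mM than with water and 1 lower, and of 20 cholesterol genes 0 and 13. Several genes that differed strongly between the concentrations did not differ detectably between 0.5 mM and water. Cyp7a1 (-0.09), Baat (0.17), Nefm (-0.12), Cdk1 (-0.28), Hdac1 (0.25) and Cd24 (-0.08) were not called between 0.5 mM and water. For Nefm, Cdk1 and Cd24 the means of both groups lay under the filter level of 164. With 0.5 mM and water these were 120 and 128 for Nefm, 38.6 and 61.3 for Cdk1, and 84.1 and 84.3 for Cd24. Their standard errors were 0.35, 0.69 and 0.54, so the missing calls of these dim genes cannot show that 0.5 mM left them unchanged. Hamp, in contrast, was called higher with 0.5 mM than with water, by 0.45 ± 0.11.

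**Figure D5:**
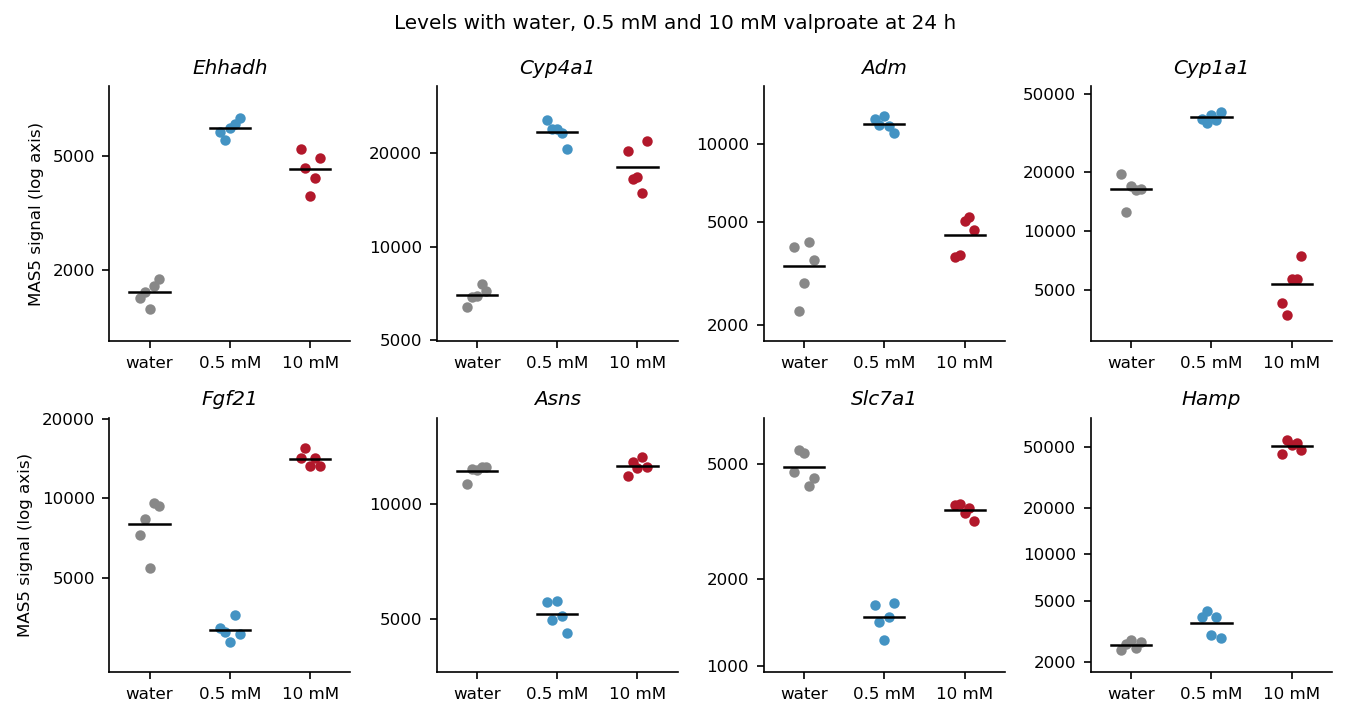
Signal per culture at 24 h with water, 0.5 mM and 10 mM valproate for 8 genes on log axes, with the group mean as a bar (n = 5 each). Ehhadh, Cyp4a1, Adm and Cyp1a1 are highest at 0.5 mM, Fgf21, Asns and Slc7a1 are lowest at 0.5 mM, and Hamp is far higher at 10 mM than at the other 2.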

How the data were processed

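RNA of rat hepatocyte cultures was hybridised to an Affymetrix rat array, 1 array per culture, in 6 groups of 5. The deposited value is the MAS5 signal, an intensity on a linear scale, per the submitters' processing notes; neither the labels nor the notes state its settings. The deposited intensity values had been scaled by the authors, since the mean after trimming 2% at each end lay between 1500.5 and 1500.7 on every array. Arrays were assigned to groups by title.

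From these values log2(signal + 16) was computed, and probesets under the 30th percentile of the mean over the 10 arrays, a signal of about 164, were left out, which kept 21729 of 31099. Water arrays entered neither this filter nor the fit. limma 3.58.1 in R 4.3.3 (lmFit and eBayes with trend) was fitted to the 5 arrays of each concentration, with Benjamini-Hochberg adjustment over the probesets kept. The same test was run at 48 h, for the change between times in 1 model of 20 arrays, and for 0.5 mM against water. The fitting code was tested on simulated data. Arrays give no read depth, and 5 arrays a group set the precision.

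Of the probesets 20826 carry 1 symbol in the platform annotation, 436 several and 9780 none, and 57 are controls; 20758 were matched to RefSeq by gene ID to update symbols. Genes were named by 2 rules: the 12 largest called rises and falls with groups that do not overlap and a bright higher group, and, in each of 49 lists, up to 5 called members per direction plus pathway members chosen by name. For the other comparisons up to 6 genes per direction were named. Members and lists were chosen with earlier results of these data known. Promoters came from the RefSeq table for GRCr8. Figures were drawn with matplotlib 3.10.9 in Python 3.11.15. Pseudocounts of 1 and 64, quantile normalization, centring on 46 probesets of ribosomal protein genes, other filters, no trend, array weights, a fit of all 30 arrays, the mean of a gene's probesets, a block by runs of arrays in the numbering of the sample descriptions, the actin ratio as covariate, a fold minimum of 2 and leaving out each array were tried as alternatives.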

Additional observations from a re-analysis of the deposited data

Results flagged for a closer look

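A single culture stood apart from the other 4 of its group in 7 of 60 groups of values examined; chance marks about 1 in 20 groups. With 10 mM these were Cdk1 in replicate 2 (1202), Baat in replicate 1 (2204), Sult2a6 in replicate 1 (1477) and the GAPDH 3′ to 5′ log2 ratio of 1 array (0.10). With 0.5 mM they were Fabp1 in replicate 1 (44642), Ccne1 in replicate 4 (20.1) and the GAPDH ratio of 1 array (0.04).

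The 10 mM minus 0.5 mM difference itself changed between 24 h and 48 h, with an adjusted p under 0.05 in limma's test of the change, for 84 named genes. It moved upward for 58 and downward for 26, and each value is the 48 h difference minus the 24 h difference on the log2 scale. Among bile acid, steroid and drug metabolism genes, Baat (1.37), Sult2a6 (1.65), Cyp8b1 (1.07), Ugt2b1 (0.52), Slco1b2 (1.09), Amacr (0.46), Hsd3b5 (1.34), Dhrs3 (0.77), Hsd17b2 (1.39) and Sult1e1 (2.25) moved upward. Of the P450 enzymes, their receptors and glutathione transferases, Cyp3a9 (0.88), Cyp2f4 (0.88), Cyp1a1 (0.95), Cyp3a2 (0.76), Nr1i3 (0.77), Nr1i2 (0.55), Nr1h3 (0.93), Gsta3 (0.59) and Gstp1 (0.66) moved upward. In fatty acid oxidation and its PPARalpha targets, Acot1 (1.83), Acot2 (0.40), Fabp1 (2.02), Acox2 (1.24), Vnn1 (0.42), Hacl1 (1.00), Ehhadh (0.69), Cyp4a1 (0.74), Acadvl (0.52), Acaa2 (0.62), Etfdh (0.48), Bbox1 (1.11) and Ppcs (0.56) moved upward. Upward movement in amino acid, sugar and sterol metabolism was seen for Dpys (1.06), Arg1 (0.99), Slc25a13 (0.40), Cps1 (0.25), Abat (0.67), Miox (0.51), Pck1 (1.22) and Insig2 (0.89). Among plasma proteins and iron genes it was seen for Mbl2 (0.40), Afp (0.58), Serpina6 (2.04), Hamp (1.04), Id3 (0.98), Hjv (0.63) and Id2 (0.80). The remaining upward genes were Crip1 (2.15), Tmed1 (2.40), Pfn1 (0.44), Gjb1 (0.57), Ndufs8 (0.34), RT1-Da (1.24), Cxcl10 (0.93), Car3 (2.25), Tmem14a (2.11), Psma3 (0.67) and Spc24 (1.07). Downward movement among lipid, sterol and amino acid genes was seen for Pdk4 (-0.64), Fasn (-0.78), Scd2 (-0.95), Cyp51 (-0.70), Mvd (-0.57), Slc7a1 (-0.87), Asns (-0.72) and Slc5a3 (-1.68). Early response, growth and chromatin genes that moved downward were Atf3 (-1.30), Egr1 (-1.00), Gadd45b (-0.78), Sox4 (-1.17), Bmp2 (-0.66), Hdac3 (-0.43), Ccn2 (-1.74) and Grb10 (-1.23). The remaining downward genes were Abcb1a (-0.63), F10 (-0.64), C5 (-0.64), Plat (-1.14), Cxcl1 (-0.65), Cenpx (-1.58), Tatdn2 (-1.54), Krt86 (-1.54), Lmcd1 (-1.49) and Fam117b (-0.69).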

How the results depend on the processing

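At 24 h, a fold minimum of 2 left 1885 probesets higher with 10 mM and 1251 lower, and 1124 and 796 genes. Centring on ribosomal protein genes left 3282 probesets and 2089 genes lower. The same centring left 330 probesets upward for the change between times, and 1003 probesets higher with 0.5 mM than with water; it and quantile normalization were applied to these comparisons after seeing the data. It put 16.4% of the calls upward for the change between times, against 49% under the authors' scaling and 50% after quantile normalization. For 0.5 mM minus water 31.8% of calls were higher after centring, against 48.8% and 44.1%. The other counts over all features stayed within 1.5 times under every alternative run.

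Leaving out each array in turn gave 6202 to 6508 probesets higher and 4876 to 5245 lower at 24 h, 3862 to 3996 and 3017 to 3183 genes, and 4897 to 5488 and 3580 to 4080 probesets at 48 h. The change between times ranged over 894 to 1578 upward and 878 to 1694 downward, and 0.5 mM minus water over 1400 to 2232 and 1578 to 2243.

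Of 255 named genes called at 24 h, 232 kept direction and call under every alternative in which they were tested, the fold minimum aside. Under the fold minimum 55 fell short. Some dim genes were not tested under all 23 alternatives, such as Cdk1 with 21 and Dyrk3 with 22. For these genes the missing alternatives could not show a loss. The sign turned for Hnf4a (0.04, ribosomal centring), Alb (0.01, quantile normalization) and Elavl3 (0.08, mean of its probesets); the cause was not tested. The labels give no replicate numbers shared between groups, but running numbers form runs of 6 arrays with 1 array of each group; with these runs as a block 6452 probesets were higher and 5141 lower. Signals near background limit the sizes of the largest rises, since 10 of 12 had a 0.5 mM mean under the filter level.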
